A study of Homo sapiens with 2 samples.

Results

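The human mitochondrial genome is represented in these data by 37 genes, which are all the genes whose position in the deposited transcript table lies on chrM, out of 46732 genes listed. They comprise 13 genes for proteins of the respiratory chain and ATP synthase, 2 ribosomal RNA genes and 22 transfer RNA genes. RNA came from secondary mammospheres of T47D, a long-used luminal breast cancer cell line that carries the estrogen receptor, grown as floating spheres for 7 days, passaged, and grown for 7 more days. The groups were CIC knockdown and control, with 1 sample and 1 column of values each, although the design text speaks of duplicates. How CIC was knocked down is not stated in the labels, and both groups share the cell line, the medium and the culture protocol. CIC is a DNA-binding repressor of genes downstream of receptor tyrosine kinases, and the comparison asks how mammosphere RNA differs when CIC is reduced.

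Human mitochondrial DNA is a small circle whose strands are each transcribed into long precursors. The heavy strand encodes both rRNAs, most of the mRNAs and most of the tRNAs, whereas the light strand encodes ND6 and the remaining tRNAs. Transfer RNAs lie between most of the mRNAs, and their excision cuts the precursor into single messages, so genes of 1 precursor can still differ in level through the stability of the finished RNA. The 13 proteins are core subunits of complexes I, III, IV and V of oxidative phosphorylation, which also contain many subunits made from nuclear genes.

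The library labelled CIC knockdown held 68420805 counts and the control library 47099221. CIC mRNA itself had 872 counts in the library labelled CIC knockdown and 607 in the control library, a ratio of 0.98 (95% counting interval 0.882 to 1.09). CIC mRNA was thus not lower where the label says knockdown, and each library is called by its label throughout. Of 9 luminal epithelial markers, 9 had at least 100 counts in a library, and by counting interval 3 were higher and 4 lower with the CIC knockdown label. Among all 13722 genes with that many counts, 33.8% were higher and 27.3% lower. The progesterone receptor gene PGR was the 1 marker past 2-fold, at 4.95 TPM with the CIC knockdown label and 2.29 TPM in control. Of 5 fibroblast markers 3 had counts, with COL1A2 and PDGFRB at 0 in both libraries, and they summed to 2.91 TPM in the library labelled CIC knockdown and 4.71 TPM in control. LUM made up most of that sum and had 432 counts with the CIC knockdown label and 550 in control, whereas COL1A1 had 168 with the CIC knockdown label and 58 in control. Leukocyte markers (1 of 4 with counts) summed to 0.0777 TPM with the CIC knockdown label and 0 TPM in control, and endothelial markers (3 of 3) to 0.124 TPM with the CIC knockdown label and 0.074 TPM in control. The part of these markers in the results was not tested. Each group has 1 library, so replicate error could not be estimated and nothing was tested; each interval below covers counting error only, and every difference is between these 2 libraries. PCR duplicates make reads depend on each other, which the intervals also leave out.

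Together the 37 genes held 109868 counts in the library labelled CIC knockdown and 73427 in control. That was 0.161% (exact Clopper-Pearson 95% interval 0.16 to 0.162%) of all counts with the CIC knockdown label and 0.156% (0.155 to 0.157%) in control, and the shares stood in a ratio of 1.03. Almost all of these counts were mRNA: the 13 protein genes took 98.9% of them in the library labelled CIC knockdown and 99.2% in control. COX1 and COX3 alone took 85.8% of the mitochondrial counts with the CIC knockdown label and 82.6% in control. Without these genes, the direction of the summed level was the opposite: the other 35 genes held 15549 counts in the library labelled CIC knockdown and 12797 in control, and the ratio of their shares was 0.836. Of these 35 members, 7 were lower by their counting interval, 1 was higher, and the intervals of the rest included 1 or could not be formed. Among the 26248 genes with any count, 19.7% were lower and 22% higher by the same rule. Many of the 35 members had too few counts for a call in either direction. Only 13 of them had at least 100 counts in a library, and the 7 lower members and the 1 higher were all among these 13. Over all 13722 genes with at least 100 counts in a library, 27.3% were lower and 33.8% higher.

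Gene by gene, the counting interval of the ratio lay above 1 for 2 of the 13 mRNAs (higher with the CIC knockdown label), below 1 for 7 (lower), and the intervals of 4 included 1. Over all 13722 genes with at least 100 counts in a library, 33.8% were higher and 27.3% lower by the same rule. The intervals are narrow at these depths, so a call by interval was common throughout the transcriptome. The median log2 ratio of the 13 mRNAs was -0.25 on the scale of normalised counts, beside 0.02 over all 13722 genes. Set against the mitochondrial counts other than COX1 and COX3, in place of the library, the median was 0.0237. Of that reference, 14365 of 15549 counts with the CIC knockdown label and 12194 of 12797 in control were of the other 11 mRNAs. These genes were thus set largely against their own sum, which all but fixed their median close to no change. The direction of the median is stated relative to the library. By a rule of size (at least 100 counts, 2-fold or more in either direction, and the interval on the same side of 1), 1 mRNA passed, ND2, beside 2.2% of all genes. It sat at the edge of that rule, with a ratio of 0.498 in normalised counts and 0.511 in TPM, where it did not pass.

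**Figure D1:**
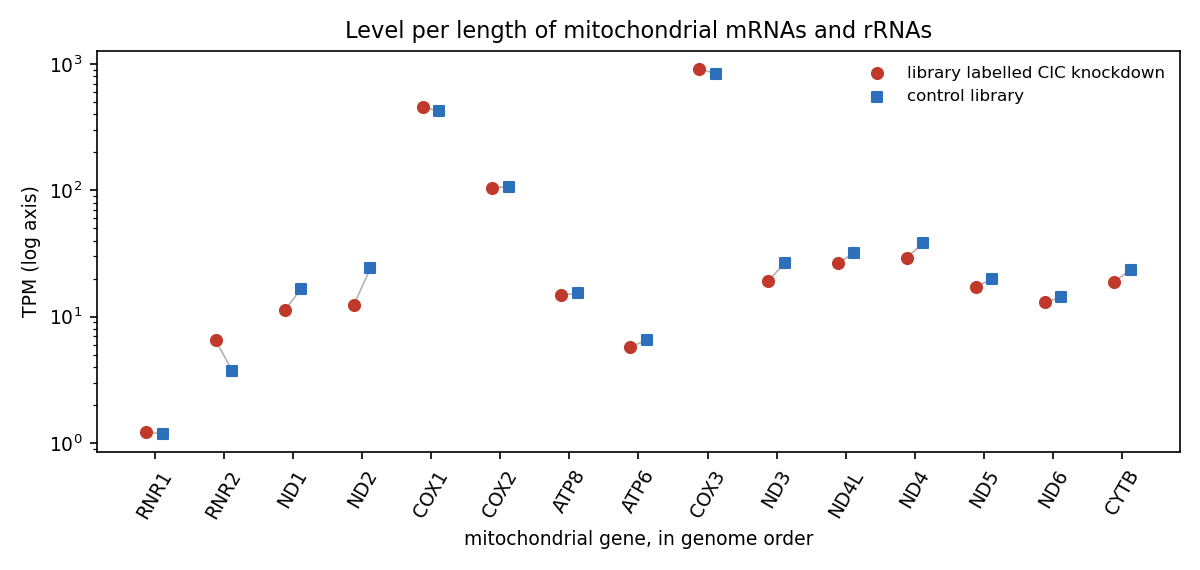
TPM (a level per length, scaled to the same sum in each library, log axis) of the 13 mitochondrial mRNAs and 2 rRNAs in genome order, with the library labelled CIC knockdown as red circles and the control library as blue squares. COX3, COX1 and COX2 stand above the other genes in both libraries, and the circles of ND1 and ND2 lie below their squares while that of RNR2 lies above.

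Complex IV, cytochrome c oxidase, hands electrons to oxygen, and its 3 mitochondrial subunits had the highest levels per length of all 37 genes. COX3, a core subunit of that enzyme (chrM:9207-9990 on GRCh38, heavy strand), ranked first with 914 TPM in the library labelled CIC knockdown and 841 TPM in control. Its counts were 47468 with the CIC knockdown label and 30546 in control, which after normalisation gave a ratio of 1.06 (1.04 to 1.08). COX1, the catalytic subunit that carries the oxygen-reducing haem (chrM:5904-7445, heavy strand), came next at 458 TPM in the library labelled CIC knockdown and 421 TPM in control. It had 46851 counts in the library labelled CIC knockdown and 30084 in control, likewise a ratio of 1.06 (1.05 to 1.08). Both genes were thus slightly higher with the CIC knockdown label, by an amount far below 2-fold. COX2, which receives the electrons from cytochrome c (chrM:7586-8269, heavy strand), was the third by level with 105 TPM in the library labelled CIC knockdown and 107 TPM in control. Its counts of 4761 with the CIC knockdown label and 3384 in control gave a ratio of 0.96 with an interval of 0.918 to 1.0 that included 1.

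Complex I, the NADH dehydrogenase at the entry of the chain, has 7 subunits encoded in the mitochondrial genome, and all 7 ratios were below 1. Of their intervals, 6 lay below 1 and that of ND6 included it, with log2 ratios from -1.0 to -0.16 on the scale of normalised counts. Against the mitochondrial counts without COX1 and COX3, ND5 and ND6 stood at 0.0237 and 0.11, and the other 5 stayed below 0. That reference is mostly the counts of the remaining mRNAs, these 7 among them. Summed, the 7 mRNAs had 7722 counts in the library labelled CIC knockdown and 7212 in control, a ratio of 0.73 (0.707 to 0.754).

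ND2, a proton-pumping membrane subunit of complex I (chrM:4470-5511, heavy strand), stood lowest among the mRNAs relative to control. It had 850 counts in the library labelled CIC knockdown and 1163 in control, fewer counts in the deeper library, and 12.3 TPM with the CIC knockdown label beside 24.1 TPM in control. Normalised, ND2 stood at 0.498 of control (0.456 to 0.545), or -1.0 in log2. Its level per length ranked 13th of the 37 genes in the library labelled CIC knockdown and 8th in control. ND1, the subunit near the quinone-binding site (chrM:3307-4262, heavy strand), likewise had fewer counts in the deeper library, 709 with the CIC knockdown label and 737 in control, and a ratio of 0.656 (0.591 to 0.728). Both genes lie in the part of the heavy-strand transcript between the rRNAs and COX1.

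The other heavy-strand subunits of complex I lie downstream of COX3 and had ratios nearer to 1. The intervals of ND3, ND4L and ND4 overlap that of ND1, and that of ND5 does not. ND3, a small membrane subunit (chrM:10059-10404), had 442 counts in the library labelled CIC knockdown and 428 in control, a ratio of 0.704 (0.615 to 0.806). ND4L and ND4, which are translated from 1 shared message (chrM:10470-10766 and chrM:10760-12137), stood close to each other: ND4L had 521 counts in the library labelled CIC knockdown and 439 in control, a ratio of 0.809 (0.712 to 0.921). ND4, one of the antiporter-like proton pumps, was the most counted complex I mRNA with 2682 counts in the library labelled CIC knockdown and 2429 in control, a ratio of 0.753 (0.713 to 0.796). The ND4L and ND4 intervals overlap. ND5, another antiporter-like pump (chrM:12337-14148), had 2064 counts in the library labelled CIC knockdown and 1671 in control, with a ratio of 0.842 (0.789 to 0.899).

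ND6, the 1 mRNA encoded on the light strand (chrM:14149-14673), is also a complex I subunit and had the complex I ratio nearest to 1. Its counts were 454 in the library labelled CIC knockdown and 345 in control, a ratio of 0.898 (0.779 to 1.04). Its heavy-strand neighbour ND5 stood at 1.32 times the TPM of ND6 in the library labelled CIC knockdown and 1.41 times in control. In counts the ratio of ratios was 0.939 (0.805 to 1.09), which included 1, so a difference between these neighbours was not detectable at this depth.

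CYTB encodes cytochrome b, the mitochondrial subunit of complex III (chrM:14747-15887, heavy strand). It had 1419 counts in the library labelled CIC knockdown and 1244 in control, or 18.8 TPM with the CIC knockdown label and 23.5 TPM in control, and a ratio of 0.778 (0.72 to 0.84). Its interval overlapped those of every complex I mRNA except ND2, and of ATP8 and ATP6, and lay wholly below those of the complex IV mRNAs.

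**Figure D2:**
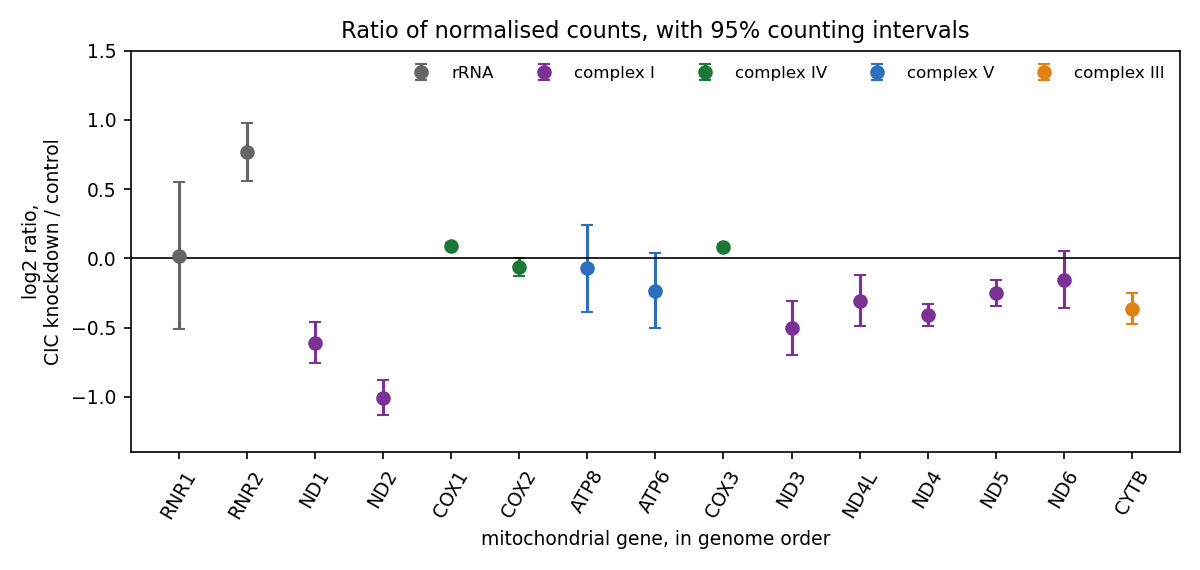
Log2 ratio of normalised counts, CIC knockdown over control, for the mitochondrial mRNAs and rRNAs in genome order, coloured by respiratory complex, with bars for the 95% counting interval. The bars of ND1, ND2, ND3, ND4L, ND4, ND5 and CYTB lie below 0, those of COX1, COX3 and RNR2 above it, with library scaling. ND5 turns to 0.0237 when set against mitochondrial counts without COX1 and COX3, which are mostly those of the remaining mRNAs themselves.

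Complex V is the ATP synthase, and its 2 mitochondrial subunits ATP8 and ATP6 are read from 1 message in overlapping frames. The ATP8 gene is shown here because reads in the overlap belong to both genes, with the 46 bases it shares with ATP6 in capitals (GENCODE 29 sequence, chrM:8366-8572, heavy strand):
ATP8: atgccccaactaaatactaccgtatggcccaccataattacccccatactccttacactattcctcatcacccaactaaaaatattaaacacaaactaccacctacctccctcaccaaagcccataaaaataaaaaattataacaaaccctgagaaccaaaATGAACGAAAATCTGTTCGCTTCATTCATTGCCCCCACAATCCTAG
ATP8, a small membrane subunit, had 205 counts in the library labelled CIC knockdown and 147 in control, a ratio of 0.951 (0.766 to 1.18). ATP6, the subunit of the proton channel (chrM:8527-9207), had 258 counts in the library labelled CIC knockdown and 207 in control, a ratio of 0.85 (0.705 to 1.03). Both intervals included 1, so a difference was not detectable at this depth. Although ATP6 ends at the base where COX3 starts, the levels of these neighbours were far apart: COX3 stood at 914 TPM and ATP6 at 5.71 TPM in the library labelled CIC knockdown, and at 841 and 6.56 TPM in control. The mitochondrial genes abut one another, and how reads spanning neighbours were divided between them could not be checked from the tables, which limits what the levels of COX1, COX3 and ATP6 mean.

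Because every member was counted in the same libraries, ratios between members do not depend on library scaling. COX1 and COX3 together had 6.57 counts for each count of the other 11 mRNAs in the library labelled CIC knockdown and 4.97 in control, a ratio of ratios of 1.32 (approximate 95% counting interval 1.29 to 1.36). The balance of complex IV to complex I mRNA was 12.8 counts per count in the library labelled CIC knockdown and 8.88 in control, a ratio of ratios of 1.45 (1.4 to 1.5). COX1 and ND2 are near neighbours with the highest and the lowest log2 ratio of the mRNAs. Their counts stood at 55.1 to 1 in the library labelled CIC knockdown and 25.9 to 1 in control, a 2.13-fold difference (1.95 to 2.33). That interval takes no account of the pair being the extremes, and the same pair gives the spread of the log2 ratios, 1.09. In these counts the mRNAs thus did not shift as a block. COX1, COX3 and ND2 are among the genes whose close copies on chromosome 1, described below, make their counts uncertain.

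The ratios followed neither position nor length closely. Over the 12 heavy-strand mRNAs, Spearman's rho between start position and log2 ratio was -0.01, and over all 13 mRNAs it was -0.08 with length and 0.37 with mean level in TPM. These are descriptions over genes that share the same libraries and precursor. Some mitochondrial mRNAs end within their stop codon, which polyadenylation then completes. By the gene sequences, 6 of the 13 end in T or TA (ND1, ND2, COX3, ND3, ND4 and CYTB), of which 5 were lower and 1 higher by interval. Their median log2 ratio was -0.46. Among the 7 genes with a full stop codon, 2 were lower and 1 higher (median -0.16). Over all genes with at least 100 counts in a library, 33.8% were higher and 27.3% lower. ND1, ND2, ND3 and ND4 of the first group are also complex I genes, and a link between stop codon and ratio was not tested.

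The 2 mitochondrial rRNAs had low levels in these libraries, which were made with a total RNA kit whose Gold version depletes cytoplasmic and mitochondrial rRNA. RNR2, the 16S rRNA of the large mitochondrial ribosomal subunit (chrM:1671-3229, heavy strand), had 674 counts in the library labelled CIC knockdown and 270 in control. In level per length it stood at 6.51 TPM in the library labelled CIC knockdown and 3.73 TPM in control, below every mRNA except ATP6 in the library labelled CIC knockdown and below every mRNA in control. The ratio of normalised counts was 1.7 (1.48 to 1.97), the largest upward ratio among the 15 members with at least 100 counts in a library. RNR1, the 12S rRNA of the small subunit (chrM:648-1601, heavy strand), had 77 counts in the library labelled CIC knockdown and 52 in control, a ratio of 1.01 (0.701 to 1.46). The 2 rRNAs are transcribed together, yet RNR2 had 8.75 counts for each count of RNR1 in the library labelled CIC knockdown and 5.19 in control, with a ratio of ratios of 1.69 (1.15 to 2.46). Protein mRNAs outnumbered rRNA by 145 counts to 1 in the library labelled CIC knockdown and 226 to 1 in control. Depletion efficiency and rRNA level cannot be told apart from these counts.

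The 22 tRNA genes held 433 counts in the library labelled CIC knockdown and 281 in control, which was 0.394% of the mitochondrial counts with the CIC knockdown label and 0.383% in control. All intervals of the 21 tRNAs with a count included 1, whereas 22% of the 26248 genes with any count were higher and 19.7% lower by interval. Most single tRNAs had fewer than 10 counts in each library, where the intervals are wide. TRNV, the valine tRNA between the rRNAs, had 0 counts in both libraries.

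**Figure D3:**
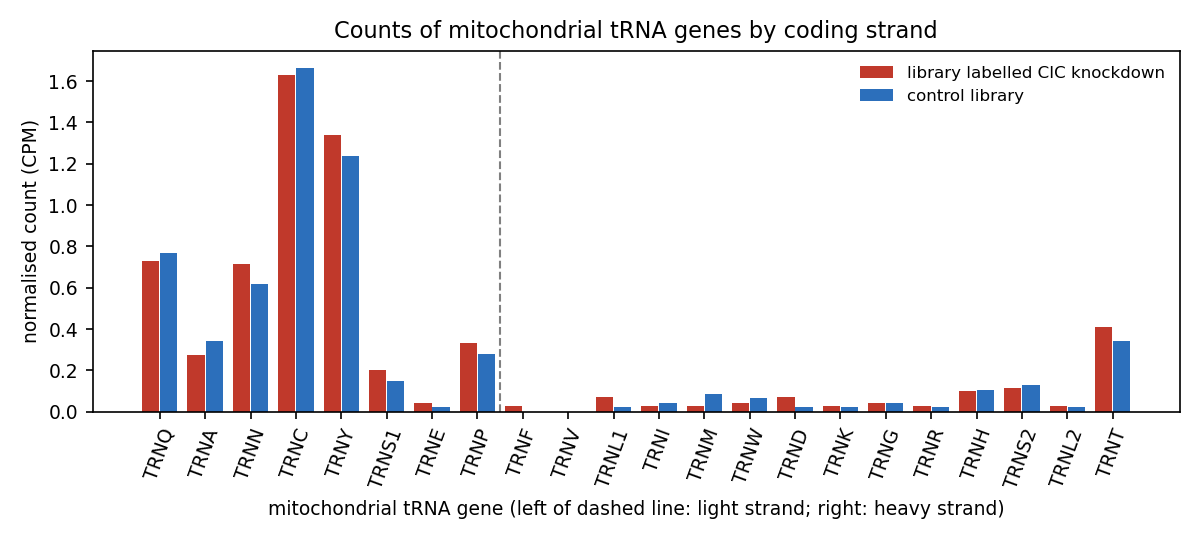
Normalised counts scaled to library size (CPM) of the 22 mitochondrial tRNA genes, with the library labelled CIC knockdown as red bars left of the control library in blue, and a dashed line between the light-strand genes on the left and the heavy-strand genes on the right. TRNC, TRNY, TRNQ and TRNN of the light strand are the tallest, and the paired bars are of similar height.

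Summed by coding strand, the light-strand tRNAs held more counts than the heavy-strand ones in both libraries, although single genes of the strands overlapped. The 8 light-strand tRNAs held 362 counts in the library labelled CIC knockdown and 238 in control, and the 14 heavy-strand tRNAs 71 with the CIC knockdown label and 43 in control. Whether the counting used strand is not stated, and without it reads of light-strand tRNAs and of heavy-strand precursors across the same positions cannot be told apart. The light-to-heavy ratio was 5.1 in the library labelled CIC knockdown and 5.53 in control, and these did not differ beyond counting error (ratio of ratios 0.921, 0.61 to 1.39). The sequences of the 4 most counted tRNAs are shown, all of the light strand, 5′ to 3′ with the anticodon in capitals (GENCODE 29 sequences on GRCh38, minus strand, TRNC at chrM:5761-5826, TRNY at chrM:5826-5891, TRNQ at chrM:4329-4400 and TRNN at chrM:5657-5729):
TRNC: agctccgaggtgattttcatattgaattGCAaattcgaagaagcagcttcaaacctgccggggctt
TRNY: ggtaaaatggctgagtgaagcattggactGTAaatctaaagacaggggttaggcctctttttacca
TRNQ: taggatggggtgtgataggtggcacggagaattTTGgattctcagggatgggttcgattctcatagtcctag
TRNN: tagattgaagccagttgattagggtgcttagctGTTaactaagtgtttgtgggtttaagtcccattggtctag
TRNC, the cysteine tRNA, had 112 counts in the library labelled CIC knockdown and 78 in control, a ratio of 0.979 (0.727 to 1.32). TRNY, the tyrosine tRNA, had 92 counts in the library labelled CIC knockdown and 58 in control, a ratio of 1.08 (0.77 to 1.53). Both belong to a light-strand cluster between ND2 and COX1, and they share 1 base. TRNQ, the glutamine tRNA, had 50 counts in the library labelled CIC knockdown and 36 in control. TRNN, the asparagine tRNA of the same cluster, had 49 counts with the CIC knockdown label and 29 in control. The other light-strand tRNAs TRNP (proline), TRNA (alanine), TRNS1 (serine) and TRNE (glutamate) had 23, 19, 14 and 3 counts in the library labelled CIC knockdown and 13, 16, 7 and 1 in control.

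Only TRNT among the heavy-strand tRNAs exceeded 10 counts, with 28 in the library labelled CIC knockdown and 16 in control. This threonine tRNA is the last gene of the heavy-strand transcript (chrM:15888-15953). The remaining 13 heavy-strand tRNAs had 0 to 8 counts in the library labelled CIC knockdown and 0 to 6 in control. TRNS2 (serine), TRNH (histidine), TRND (aspartate) and TRNL1 (leucine) had 8, 7, 5 and 5 counts in the library labelled CIC knockdown and 6, 5, 1 and 1 in control. For TRNW (tryptophan), TRNG (glycine), TRNM (methionine) and TRNI (isoleucine), the counts were 3, 3, 2 and 2 in the library labelled CIC knockdown and 3, 2, 4 and 2 in control. TRNF (phenylalanine), TRNK (lysine), TRNR (arginine) and TRNL2 (leucine) had 2 counts each in the library labelled CIC knockdown and 0, 1, 1 and 1 in control. At such values the deposited counts were rounded up from less than a whole read: before rounding, TRNL1 amounted to 4.17 reads in the library labelled CIC knockdown and 0.347 in control. No order among these tRNAs could be read from them.

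Copies of mitochondrial DNA inserted in the nuclear chromosomes can take reads from the genes they resemble. GENCODE 29 lists such pseudogenes for all 13 mRNAs, and for 7 of them (ND1, ND2, COX1, COX2, ATP8, ATP6 and COX3) the closest is in a single stretch of chromosome 1. These chromosome 1 copies were 97.6 to 99.1% identical over the aligned bases, but cover 36.8% of ND1 and 69.8% of COX3. For ND2 the copy MTND2P28 differs at 17 of 1042 bases, and 43.6% of all windows of 50 bases are identical in both. The stretch of 120 bases in which they differ most holds 5 differences, shown in capitals to illustrate how little separates them (GENCODE 29 sequences on GRCh38, plus strand, ND2 at chrM:4839-4958 and the copy at chr1:630009-630128):
ND2: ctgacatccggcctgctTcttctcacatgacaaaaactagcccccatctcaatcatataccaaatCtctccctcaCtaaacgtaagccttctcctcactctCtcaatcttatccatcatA
MTND2P28: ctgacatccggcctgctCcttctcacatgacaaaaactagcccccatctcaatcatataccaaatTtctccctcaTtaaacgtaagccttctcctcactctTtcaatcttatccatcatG
The counts of these 7 genes are therefore uncertain, since reads could be divided between the genome and the copy. In the other 6 genes (ND3, ND4L, ND4, ND5, ND6 and CYTB), the closest copy is on chromosome 5, 86.4 to 95.8% identical, and identical in at most 17.9% of windows of 50 bases. These 6 had log2 ratios from -0.50 to -0.16, with 5 lower by interval and 0 higher. The 7 genes with a chromosome 1 copy ranged more widely, from -1.0 to 0.09, with 2 lower and 2 higher. Over all genes with at least 100 counts in a library, 27.3% were lower and 33.8% higher. Whether the copies have a part in the wider range was not tested.

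Reads were also assigned to the chromosome 1 copy. The deposited lists of assembled transcripts, which hold models outside annotated genes and new variants overlapping them, place 7 transcripts there, with 5557 counts in the library labelled CIC knockdown and 3883 in control. Along MTND2P28, the transcript in the orientation of ND2 (chr1:629650-630035) had 155 counts in the library labelled CIC knockdown and 151 in control. Its ratio of 0.707 (0.561 to 0.891) was in the same direction as that of ND2 itself, but its interval lay wholly above that of ND2 (0.456 to 0.545). The transcript on the opposite strand (chr1:629639-630035) had 257 counts with the CIC knockdown label and 160 in control, a ratio of 1.11 (0.905 to 1.36). Over the COX1 copy, 1 transcript (chr1:631781-632690) had 3218 counts in the library labelled CIC knockdown and 2145 in control, a ratio of 1.03 (0.978 to 1.09). The transcript over the COX3 copy (chr1:634720-634924) had 70 counts with the CIC knockdown label and 47 in control, a ratio of 1.03 (0.699 to 1.52). Along the ATP6 copy, the same-strand transcript (chr1:633888-634228) had 110 counts with the CIC knockdown label and 119 in control, a ratio of 0.637 (0.487 to 0.832). Between the copies of ND2 and COX1, where the mitochondrial genome has its cluster of tRNAs, a plus-strand transcript (chr1:630756-630986) had 1698 counts in the library labelled CIC knockdown and 1229 in control, a ratio of 0.952 (0.884 to 1.02). Whether these reads came from the nuclear copy or from the mitochondrial genome was not tested. Of 10 annotated MTRNR2-like genes, which are nuclear relatives of RNR2, 9 had 0 counts in both libraries and MTRNR2L8 had 1 count in the library labelled CIC knockdown and 0 in control.

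Nuclear genes for transcription of the mitochondrial genome were counted in both libraries. Of 10, the interval put 4 below control and 1 above, and the median log2 ratio was -0.05. For this and each nuclear list below, the shares over all genes are 33.8% higher and 27.3% lower. TFB2M, the factor that melts the mitochondrial promoter for the polymerase, had 1541 counts in the library labelled CIC knockdown and 1484 in control, a ratio of 0.708 (0.659 to 0.761). MTERF1, which binds downstream of the rRNA genes, stood at 0.7 (0.644 to 0.762) with 1114 counts in the library labelled CIC knockdown and 1085 in control. MTERF4, needed for mitochondrial ribosome assembly, stood at 0.771 (0.735 to 0.809), and MRPL12, a ribosomal protein reported to bind the polymerase, at 1.17 (1.03 to 1.34). None of the 10 passed the rule of size.

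Genes for processing and decay of mitochondrial RNA had 5 of 23 higher and 3 lower, both smaller shares than over all genes, and a median log2 ratio of 0.03. FASTKD5, needed to process message ends that are not flanked by a tRNA, had a log2 ratio of 0.37 (2027 counts in the library labelled CIC knockdown and 1072 in control). FASTKD1 stood at 0.30, FASTKD3 at -0.22, and SLIRP, the partner of LRPPRC in stabilising mitochondrial mRNAs, at 0.29. In the list for modification of mitochondrial rRNA and tRNA, 8 of 18 were higher, 3 were lower, and the median was 0.02. Its named members were all higher, with RPUSD3, a pseudouridine synthase-like protein, at 0.54, the tRNA-modifying GTPase GTPBP3 at 0.41, MRM3, which methylates the 16S rRNA, at 0.37, and ERAL1, a chaperone of the 12S rRNA, at 0.27.

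For maintenance of mitochondrial DNA, 16 of 17 genes had at least 100 counts in a library, of which 4 were higher and 6 lower (median -0.05). RRM2B, a ribonucleotide reductase subunit that supplies nucleotides outside S phase, was the 1 gene past the rule of size, with 9934 counts in the library labelled CIC knockdown and 14781 in control and a log2 ratio of -1.13. TK2, the mitochondrial thymidine kinase, stood at -0.24, the primase-polymerase PRIMPOL at -0.20 and ATAD3B at 0.27. Among regulators of mitochondrial gene expression, 4 of 8 were higher and 1 lower (median 0.06). The coactivators PPARGC1B and PPRC1 stood at 0.39 and 0.20 and the receptor ESRRA at 0.24, while ESRRG had 114 counts with the CIC knockdown label and 87 in control and an interval that included 1.

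**Figure D4:**
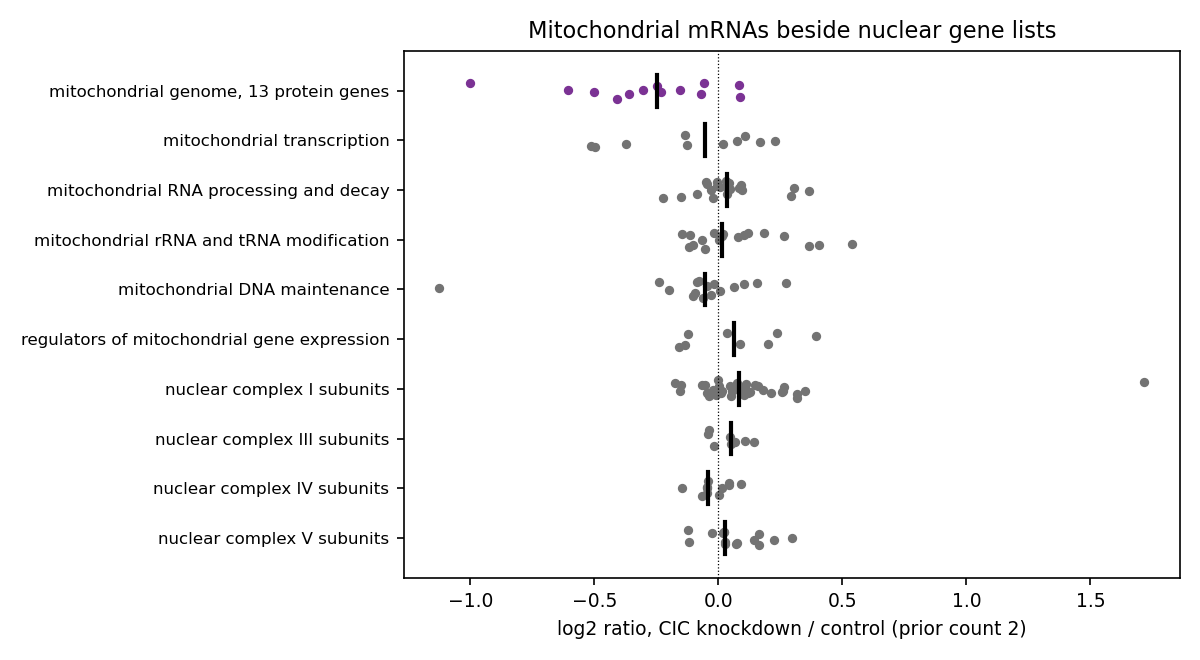
Log2 ratio of CIC knockdown to control (normalised counts, prior count 2) for each gene with at least 100 counts in a library, for the 13 mitochondrial mRNAs in the top row and for lists of nuclear genes below, with black ticks at the medians. Scaled to the libraries, the mitochondrial median lies at -0.25 and those of the nuclear lists between -0.05 and 0.08. Against mitochondrial counts without COX1 and COX3, which are mostly those of the remaining mRNAs themselves, the mitochondrial median is 0.0237.

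Nuclear subunits of the same complexes are set beside the mitochondrial ones by their counts of calls, to be read against 33.8% higher and 27.3% lower over all genes. In complex I, where all 7 mitochondrial ratios were below 1, 22 of 37 nuclear subunits were higher and 4 lower by interval (median log2 ratio 0.08). NDUFA5 stood at 1.72 with 10263 counts in the library labelled CIC knockdown and 2127 in control, and NDUFC1, NDUFS6 and NDUFA10 at 0.35, 0.32 and 0.32. Complex III had 5 of 9 higher and 0 lower, from UQCRB at 0.14 and UQCRC1 at 0.11 to UQCRFS1 at 0.07 and UQCRQ at 0.06 among those named. In complex IV, where COX1 and COX3 were higher, 1 of 11 nuclear subunits was higher and 4 lower, with COX6C at -0.15, COX5A at 0.09, COX7A2 at -0.07 and COX7C at -0.05. Complex V had 8 of 15 higher and 2 lower, among them ATP5F1D at 0.30, ATP5MC1 at 0.22, ATP5PD at 0.16 and ATP5ME at 0.16. Whether the mitochondrial and nuclear members of a complex differ beyond the spread between cultures could not be tested with 1 library per group.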

How the data were processed

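Trimmomatic, HISAT2, StringTie and the builds hg38 and GRCh38 are named in the submitters' processing notes, without versions or settings. Per the file headers, the deposited tables hold read counts, FPKM and TPM for genes and transcripts. The counts are estimated counts: in the library labelled CIC knockdown 100.0% and in control 99.98% of counted transcripts lay less than 1 above FPKM times length times a constant, within 0.01, so the deposited counts had been rounded up and were not rounded again. The FPKM and TPM values were scaled by the authors. Deposited lists of assembled transcripts carry the same units and also give strand.

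Members are the 37 genes on chrM. Their strands and sequences come from GENCODE 29, whose chrM positions equal those of the files for all 37. Totals were scaled by TMM factors (edgeR 4.0.16, R 4.3.3), 1.0 for the library labelled CIC knockdown and 0.995 for control, from all 46732 genes. The alternatives were other factors (DESeq2 1.42.0 among them), units, tables and prior counts. Log2 ratios used a prior count of 2. Ratios carry exact conditional Clopper-Pearson 95% intervals (SciPy 1.17.1). Ratios of ratios carry a normal approximation on the log scale. Nuclear copies were aligned with Biopython 1.88, and the closest was the one with the most identical windows of 50 bases, a criterion adopted after alignment score had picked other copies for COX3 and ND1. The interval calculation was tested on simulated counts. No p-value was computed.

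Every mitochondrial gene was named, plus CIC, and the 4 members of each of 9 nuclear gene lists with the largest absolute log2 ratio among those with at least 50 counts in a library. The members and lists were chosen with earlier results of these data known. Genes read in overlap (ATP8 with ATP6, ND4L with ND4) share reads. Whether reads or fragments were counted, and whether by strand, is not stated.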

Additional observations from a re-analysis of the deposited data

Results flagged for a closer look

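Besides the annotated genes, the deposited lists hold 2 assembled transcripts on the mitochondrial genome, 1 overlapping annotated genes on the opposite strand and 1 outside them. Both exceeded the floor of 3 counts. The first lies on the light strand opposite RNR1 and TRNF (chrM:1-1601, minus strand) and had 6571 counts in the library labelled CIC knockdown and 4314 in control, a ratio of 1.05 (95% counting interval 1.01 to 1.09). It had 53.7 FPKM in the library labelled CIC knockdown and 51.0 FPKM in control. RNR1 on the opposite strand had 1.11 FPKM with the CIC knockdown label and 1.09 FPKM in control in the separately scaled table of annotated genes. The library kit may have depleted RNR1, as its Gold version does with mitochondrial rRNA. These values therefore do not compare the levels of the 2 RNAs in the cells. Whether the counts of the annotated genes used strand is not stated. The second lies on the plus strand at the start of the control region (chrM:1-214) and had 252 counts in the library labelled CIC knockdown and 117 in control, a ratio of 1.48 (95% counting interval 1.19 to 1.86), and neither transcript enters the comparisons above.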

How the results depend on the processing

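The 7 lower and 2 higher mRNAs were called alike with library totals, DESeq2 size factors and halved counts (for the case that both mates were counted). They were also called alike in the table with assembled transcripts, where all 37 members had equal counts and only the scaling differed. The prior count does not enter the intervals, and the transcript table was run with the same counts, so neither could change a call. Upper-quartile factors and scaling to all mitochondrial counts gave 8 lower, adding COX2. Scaling to mitochondrial counts without COX1 and COX3 gave 4 lower and 3 higher, a median log2 ratio of 0.0237 and ND5 at 0.0237. That reference is mostly the counts of the other 11 mRNAs themselves, so a median close to no change was largely fixed in advance. The direction of the median is stated relative to the library. The 1 mRNA past 2-fold, ND2, was 0 with library totals, in the table with assembled transcripts, under that scaling, in TPM and in FPKM. The spread of the mRNAs' log2 ratios, 1.09, kept within its counting interval in each alternative run. Those run for it kept the counts, changed the prior count or rescaled all genes alike. None could move the spread by much, so its stability is no added support. The ratio of the mitochondrial shares was 1.04 in TPM, 1.04 in FPKM and 1.04 in the table with assembled transcripts, and 0.836 without COX1 and COX3, an alternative chosen after seeing the data. Of 447 values of single genes under the alternatives, 429 stayed within their counting interval. Among the 447, values from the transcript table and from the filter of at least 100 counts could not move. The sign changed in 16 of the 447, of which 9 came with scaling to mitochondrial counts without COX1 and COX3 and 7 with other settings. Among these 16, ND5 was the 1 gene called by its interval, and the others had intervals that included 1. Counts before rounding up, also added after seeing the data, moved no gene outside its interval. No paired analysis was possible because each group has 1 sample. At this depth a count of 0 allows up to 0.0438 CPM in the library labelled CIC knockdown and 0.0637 CPM in control.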
